A study of Mus musculus with 20 samples.

Results

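The mitochondrial beta-oxidation genes are 35 mouse genes that carry fatty acids into the mitochondrion and break them down there. They were taken as a list of names, and every probe that the array's annotation gives to one of them was used. Of the 35 genes, 33 have a probe, 61 of the 25697 probes on the array; Hadha and Acad11 have none. A probe entered the tests of a tissue if its deposited detection p-value was under 0.05 on 4 or more of 8 muscle arrays, or on 6 or more of 12 brain arrays. This kept 51 probes of 31 genes in muscle, 44 probes of 30 genes in brain, and 42 probes of 29 genes in both. The 8 probes kept in neither tissue include the only probe of Cpt1a, the liver form of the entry enzyme, which was above background on 0 arrays.

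The arrays are Illumina mouse bead arrays of muscle and of brain from mice that carry a human mutant TDP-43 transgene in the heterozygous state and from controls labelled as heterozygote wt, here called wild type. TDP-43 binds RNA in the nucleus and forms cytoplasmic inclusions in amyotrophic lateral sclerosis. Muscle was taken from 4 mutants and 4 wild types and brain from 6 mutants and 6 wild types, and each array has its own mouse identifier. All 20 mice were 17 weeks old on the C57BL/6J background, and the study's design text calls the mutants male; the line and promoter of the transgene, and which muscle was taken, are not given in the sources used here.

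Beta-oxidation starts when a fatty acyl-CoA is passed to carnitine by a carnitine palmitoyltransferase, crosses the inner mitochondrial membrane on a translocase, and is handed back to CoA inside. A dehydrogenase, a hydratase, a further dehydrogenase and a thiolase then cut acetyl-CoA from the chain in a repeating cycle, and electrons from the first step reach the respiratory chain through the electron-transferring flavoprotein. Working muscle and heart draw much of their energy from this route, whereas neurons use it little and much of the brain's beta-oxidation is in astrocytes.

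A muscle array had 11469 to 12446 probes above background, 48 to 53 of them for beta-oxidation genes, and a brain array had 11736 to 12966, with 40 to 45 for these genes. Muscle fibre and neuron markers went with the labels by level, and only in part by detection. Ckm, the creatine kinase of muscle fibres, was detected on 8 of 8 muscle and 0 of 12 brain arrays. Acta1, Mb, Actn3, Mylpf and Tnnt3 were detected on 8 muscle arrays, and on 12, 11, 7, 2 and 0 brain arrays. Syt1, a synaptic vesicle protein, was detected on 0 muscle and 12 brain arrays, Stmn2 on 8 and 12, and Snap25, Nefl and Tubb3 on 0 brain arrays. The median log2 difference, wild-type muscle minus wild-type brain, was 9.25 for 6 muscle fibre genes and -6.19 for the 2 neuron genes tested. Of these, Ckm, Tnnt3, Mylpf and Syt1 passed the detection filter in a single tissue, so the medians are a description. The Y-linked Eif2s3y was detected on all 8 muscle arrays but on only 6 of the 12 brain arrays, 3 per genotype. Kdm5d, also Y-linked, was detected on 7 muscle and 5 brain arrays, and the X-inactivation gene Xist on 0 and 8. These 3 genes go against a male sex for every brain. The Y-linked Uty does not, with 6 muscle and 11 brain arrays. Muscle wild type 2, brain mutant 2 and brain wild types 2 and 4 stood apart from the other arrays of their tissue on the first principal component. Markers of other tissues also varied. The mean log2 signal of 8 pancreatic acinar genes was 5.09 to 5.24 in mutant and 6.39 to 7.22 in wild-type muscles. That of 3 of the 4 genes listed for brown adipocytes (Ucp1, Cidea and Cox7a1) ranged from 7.93 to 10.23 in mutant and from 7.63 to 9.46 in wild-type muscles. The remaining gene of that list, Elovl3, was detected on only 1 of 8 muscle arrays and was not tested. Cidea and Cox7a1 were also detected on 12 of 12 brain arrays. Cox7a1 was bright on every muscle array, at 12.87 to 13.49, so the variation of this list lies mainly in Ucp1 and Cidea. In brain, 5 cerebellum genes averaged 9.10 to 9.79 in mutants and 7.29 to 9.74 in wild types.

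Promoters of 28 of the 35 genes were found in RefSeq (GRCm38.p6), as 250 bases before to 50 bases after the annotated start. They were searched on both strands for letters bound by regulators of this pathway. The direct repeat of the PPAR and RXR receptors, which is AGGTCA, any 1 base and AGGTCA again, was in 0 of the 28 and in 0.03957% of all 32851 promoters. The nuclear receptor core AGGTCA on its own, which also lies inside the repeat, was in 5 of the 28 (17.86%), in Acadm, Acadvl, Cpt1a, Cpt1c and Echs1, against 16.26% of all promoters. The extended site of the ERR receptors, TNAAGGTCA, which also holds that core, was in 0 of the 28 against 1.282%. The core of the NRF1 site, a palindrome rich in G and C, was in 4 of the 28 (14.29%), in Acad10, Etfb, Etfdh and Slc22a5, against 4.603% of all promoters. A match describes the letters only, and no match says only that the letters are not in this window. Windows of 250 bases before the start are shown for genes that recur in the comparisons, with the matched letters in capitals. They are Etfdh (chr3:79628768-79629017, minus strand; NRF1 core), Echs1 (chr7:140116422-140116671, minus strand; AGGTCA), Acadvl (chr11:70015429-70015678, minus strand; AGGTCA), Cpt1c (chr7:44974852-44975101, minus strand; AGGTCA) and Hadhb (chr5:30155003-30155252, plus strand; no match). The starts of Hadhb and of Hadha, which encode the partner subunits of the trifunctional protein, lie 273 bases apart on opposite strands. The Hadhb window thus also holds most of the 250 bases before the Hadha start, but not that start itself.
Etfdh: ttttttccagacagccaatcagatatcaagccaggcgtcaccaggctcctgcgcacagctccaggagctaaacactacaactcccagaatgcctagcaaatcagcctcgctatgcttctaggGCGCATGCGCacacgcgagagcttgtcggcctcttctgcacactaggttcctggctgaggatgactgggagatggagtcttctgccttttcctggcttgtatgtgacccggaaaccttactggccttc
Echs1: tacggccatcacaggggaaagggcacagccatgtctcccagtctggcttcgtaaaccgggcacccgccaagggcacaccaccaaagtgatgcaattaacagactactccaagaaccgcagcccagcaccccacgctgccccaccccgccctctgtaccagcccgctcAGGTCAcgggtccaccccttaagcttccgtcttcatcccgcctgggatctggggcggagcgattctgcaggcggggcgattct
Acadvl: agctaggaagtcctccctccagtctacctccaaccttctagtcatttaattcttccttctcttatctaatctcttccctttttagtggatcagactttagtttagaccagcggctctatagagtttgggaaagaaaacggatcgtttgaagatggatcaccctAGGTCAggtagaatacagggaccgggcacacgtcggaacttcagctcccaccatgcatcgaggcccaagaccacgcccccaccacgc
Cpt1c: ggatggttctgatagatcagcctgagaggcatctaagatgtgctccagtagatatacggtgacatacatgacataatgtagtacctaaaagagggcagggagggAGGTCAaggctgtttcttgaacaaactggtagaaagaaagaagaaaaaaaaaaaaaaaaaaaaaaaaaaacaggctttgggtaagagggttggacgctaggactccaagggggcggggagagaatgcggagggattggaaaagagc
Hadhb: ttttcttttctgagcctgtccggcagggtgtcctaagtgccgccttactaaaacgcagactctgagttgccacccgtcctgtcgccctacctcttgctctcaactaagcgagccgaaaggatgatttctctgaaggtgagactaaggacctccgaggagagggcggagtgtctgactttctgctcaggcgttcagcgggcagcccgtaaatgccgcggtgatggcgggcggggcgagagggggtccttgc

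The first comparison is between tissues. Levels for it are log2 signals after background correction and quantile normalization of the 20 arrays together, and a probe was called when limma's p, adjusted by Benjamini-Hochberg over all 14022 probes tested in either tissue, was under 0.05. Nearly all of the pathway was higher in muscle. Of the 42 probes tested in both tissues, 39 (92.9%) were called higher in muscle in mutant mice and 1 (2.38%) was called lower, where 43.6% of all 10107 such probes were called higher and 31.1% lower. In wild-type mice 38 of the 42 (90.5%) were called higher, 1 was called lower and 3 were not called, where the array gave 43.2% and 30.8%. The median log2 difference of the 42, muscle minus brain, was 2.60 in mutants and 2.50 in wild types, and over all such probes it was 0.17 in each genotype. The 53 beta-oxidation probes tested in either tissue include some that passed the detection filter only where they are high. Of these 53, 48 were called higher and 3 lower in mutants, where the array gave 41% and 35.3%, and 47 higher and 3 lower in wild types, where it gave 40.7% and 35.2%. Differences given below for single genes are those in wild-type mice. In all 4 groups a lower signal may come from fewer cells of a type or from less RNA per cell, which cannot be told apart in whole tissue. Muscle and brain came from different mice and were normalized together here; tissue and array run cannot be told apart.

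**Figure D1:**
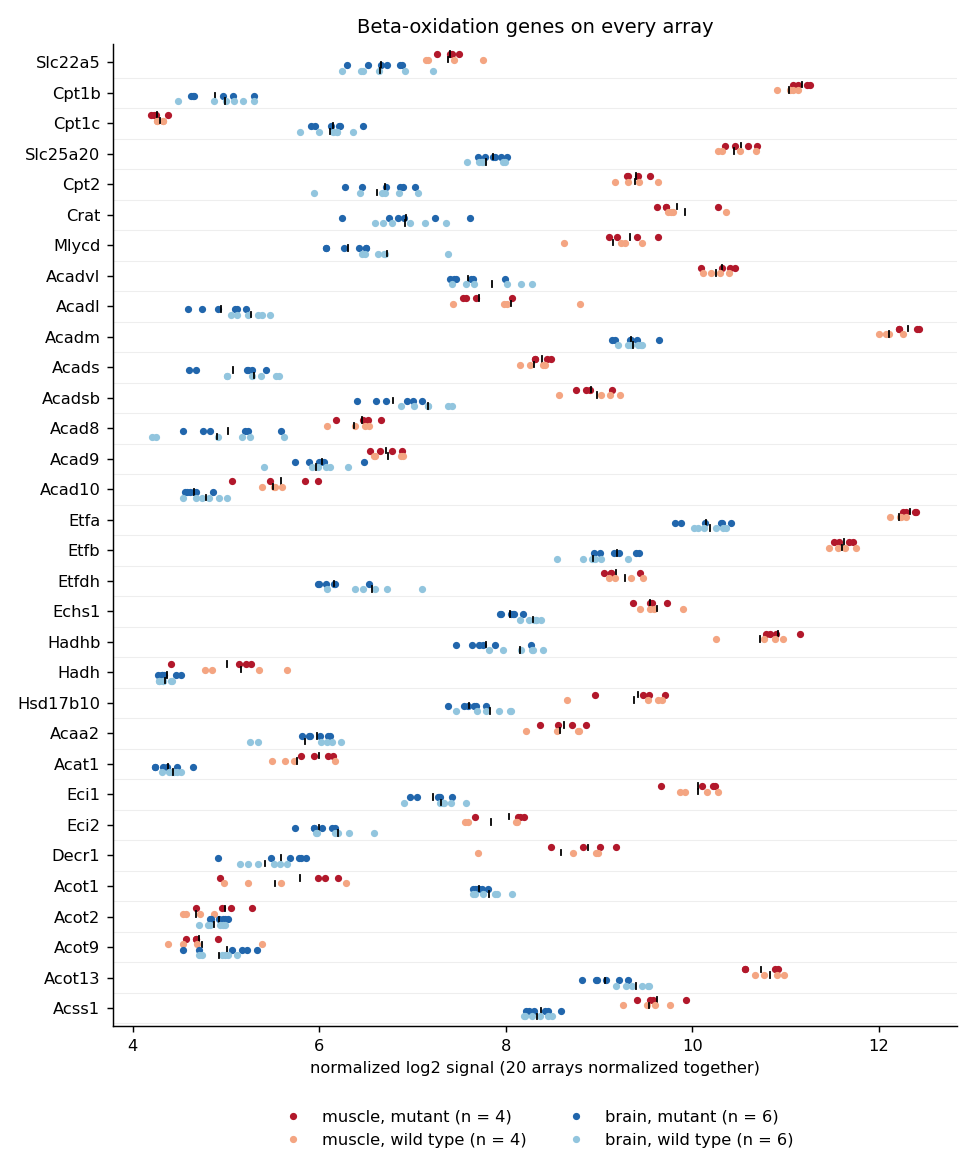
Normalized log2 signal (x axis, 20 arrays normalized together) of each beta-oxidation gene (rows), represented by its brightest tested probe. Points are mice (mutant above wild type within a tissue; muscle red, brain blue) and the black ticks are group means; Cpt1b sits at 10.91 to 11.27 on muscle arrays and at 4.49 to 5.30 on brain arrays, while Cpt1c and Acot1 are the other way round.

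Carnitine shuttle genes held the largest difference. Cpt1b encodes the muscle form of carnitine palmitoyltransferase 1, which commits long chains to entry. Its log2 signal was 11.27, 11.14, 11.23 and 11.08 in mutant muscles and 11.04, 10.91, 11.14 and 11.08 in wild-type muscles, whereas the lowest, median and highest were 4.62, 4.81 and 5.30 in mutant brains and 4.49, 5.04 and 5.29 in wild-type brains. Every muscle lay far above every brain, and wild-type muscle was higher by 6.06 (SE 0.15, adjusted p = 1.12e-19), or 66.6-fold. Without background correction the difference was 4.21. A further Cpt1b probe, above background on no brain array, was at least 13.5-fold higher in wild-type muscle. Cpt1c, the brain form, which sits in the endoplasmic reticulum of neurons, went the other way. Its signal of 4.20 to 4.38 in mutant muscles and 4.26 to 4.33 in wild-type muscles was above background on 0 muscle arrays. In brain it was above background on 12 of 12 arrays, at 5.92, 6.17 and 6.46 in mutants and 5.79, 6.16 and 6.36 in wild types (lowest, median and highest). Wild-type muscle was lower by at least 2.75-fold. Since the probe entered the test through brain alone, its direction is a description. A lower bound of this kind sets the brighter group's mean against the dimmest signal that is still above background, or the probe's own if that is higher.

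The other carnitine shuttle genes were also higher in muscle. Crat, the carnitine acetyltransferase that exports acetyl groups as acetylcarnitine, was at 9.62, 9.72, 9.72 and 10.27 in mutant muscles and 9.77, 10.37, 9.80 and 9.74 in wild-type muscles. In brain it was at 6.24, 6.87 and 7.61 in mutants and 6.60, 6.88 and 7.36 in wild types (lowest, median and highest), with no overlap between the tissues. Wild-type muscle was higher by 2.99 (SE 0.21, adjusted p = 2.83e-11). Cpt2, which hands the chain back to CoA on the inner membrane, was at 9.30 to 9.54 in mutant and 9.17 to 9.63 in wild-type muscles, and at 6.27 to 7.02 in mutant and 5.95 to 7.06 in wild-type brains. Its difference in wild-type mice was 2.77 (SE 0.18, adjusted p = 3.85e-12). Slc25a20, the translocase of the inner membrane, was higher by 2.66 (SE 0.11), and Mlycd, the decarboxylase that removes the inhibitor malonyl-CoA, by 2.42 (SE 0.18). Slc22a5, the carnitine importer of the cell membrane, was higher by 0.72 by its brightest probe (SE 0.17, adjusted p = 0.000517). A further Slc22a5 probe gave 0.30 (SE 0.19, adjusted p = 0.168) with overlapping tissues, so the call depends on the probe.

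The 8 acyl-CoA dehydrogenase genes tested in both tissues were all called higher in wild-type muscle. Acads, which acts on short chains, was at 8.48, 8.31, 8.32 and 8.44 in mutant muscles and 8.42, 8.15, 8.26 and 8.39 in wild-type muscles, against 4.60, 5.23 and 5.42 in mutant brains and 5.01, 5.33 and 5.57 in wild-type brains (lowest, median and highest). The tissues did not overlap, and wild-type muscle was higher by 3.01 (SE 0.15, adjusted p = 8.01e-14), an 8.05-fold difference (1.67 without background correction, on the log2 scale). Acadl, the long-chain enzyme, was at 8.07, 7.57, 7.68 and 7.54 in mutant muscles and 7.98, 8.80, 8.01 and 7.44 in wild-type muscles, against 4.59 to 5.21 in mutant and 5.06 to 5.47 in wild-type brains. Its difference was 2.79 (SE 0.19, adjusted p = 1.09e-11). Acadm, which acts on medium chains, differed by 2.75 (SE 0.10) and a second probe by 3.86 (SE 0.22), and Acadvl, which acts on very long chains at the inner membrane, by 2.40 (SE 0.15). The genes of branched-chain and accessory members differed less: 1.81 for Acadsb (short branched chains), 1.47 for Acad8 (valine breakdown), 0.77 for Acad9 (an assembly factor of respiratory complex I) and 0.72 for Acad10.

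The electron-transfer genes were higher in wild-type muscle by 2.03 for Etfa and 2.67 for Etfb, the subunits of the flavoprotein, and by 2.71 for Etfdh, the oxidoreductase that passes its electrons to ubiquinone. Among the genes of the later steps, Acaa2, the thiolase of the matrix, was higher by 2.74 and Hadhb, the thiolase subunit of the trifunctional protein, by 2.57. Smaller differences were seen for Hsd17b10 (1.54), a dehydrogenase that also serves mitochondrial RNA processing, and for Echs1 (1.33), the short-chain hydratase. Hadh, the medium and short-chain dehydrogenase, was above background on 0 brain arrays and was at least 1.51-fold higher in wild-type muscle; Acat1, the thiolase of ketone and isoleucine metabolism, was above background on 0 wild-type brain arrays and was at least 2.29-fold higher. The genes measured in both tissues passed the test. Hadh and Acat1 entered it through muscle alone, so their direction is a description.

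Enzymes for unsaturated chains were called higher too. Decr1, the dienoyl-CoA reductase, was at 9.02, 8.82, 9.18 and 8.49 in mutant muscles and 8.99, 7.70, 8.97 and 8.72 in wild-type muscles. In brain it was at 4.91, 5.73 and 5.86 in mutants and 5.14, 5.43 and 5.65 in wild types. Muscle wild type 2 was more than 1 below the other 3 wild-type muscles and still above every brain; the difference in wild-type mice was 3.18 (SE 0.22, adjusted p = 1.86e-11), or 9.09-fold (1.89 without background correction, on the log2 scale). The isomerases Eci1 and Eci2 were higher by 2.75 and 1.65.

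The thioesterases, which release free acids from CoA, differed among themselves. Acot1, a cytosolic thioesterase, was at 5.99, 4.93, 6.20 and 6.06 in mutant muscles and 6.29, 5.59, 5.23 and 4.98 in wild-type muscles, against 7.65, 7.70 and 7.80 in mutant brains and 7.65, 7.82 and 8.06 in wild-type brains. Every muscle lay below every brain, and wild-type muscle was lower by 2.30 on the log2 scale (difference -2.30, SE 0.22, adjusted p = 3.35e-09). Its mitochondrial paralog Acot2 had probes that disagreed: the brightest gave -0.20 (SE 0.11, adjusted p = 0.0928), with overlapping groups at 4.68 to 5.28 in mutant and 4.54 to 4.87 in wild-type muscles and 4.83 to 5.02 in mutant and 4.70 to 4.99 in wild-type brains. The other Acot2 probe, above background on no brain array, was at least 1.48-fold higher in wild-type muscle. Acot1 and Acot2 are close in sequence, so their probes may share signal and both values are uncertain. Acot9, a thioesterase of mitochondria, gave -0.18 (SE 0.17, adjusted p = 0.358) with overlapping groups, at 4.57 to 4.91 in mutant and 4.37 to 5.38 in wild-type muscles and 4.54 to 5.33 in mutant and 4.71 to 5.11 in wild-type brains. Acot13, which acts on long chains, and Acss1, which activates acetate in the matrix, were higher in wild-type muscle by 1.44 and 1.20.

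**Figure D2:**
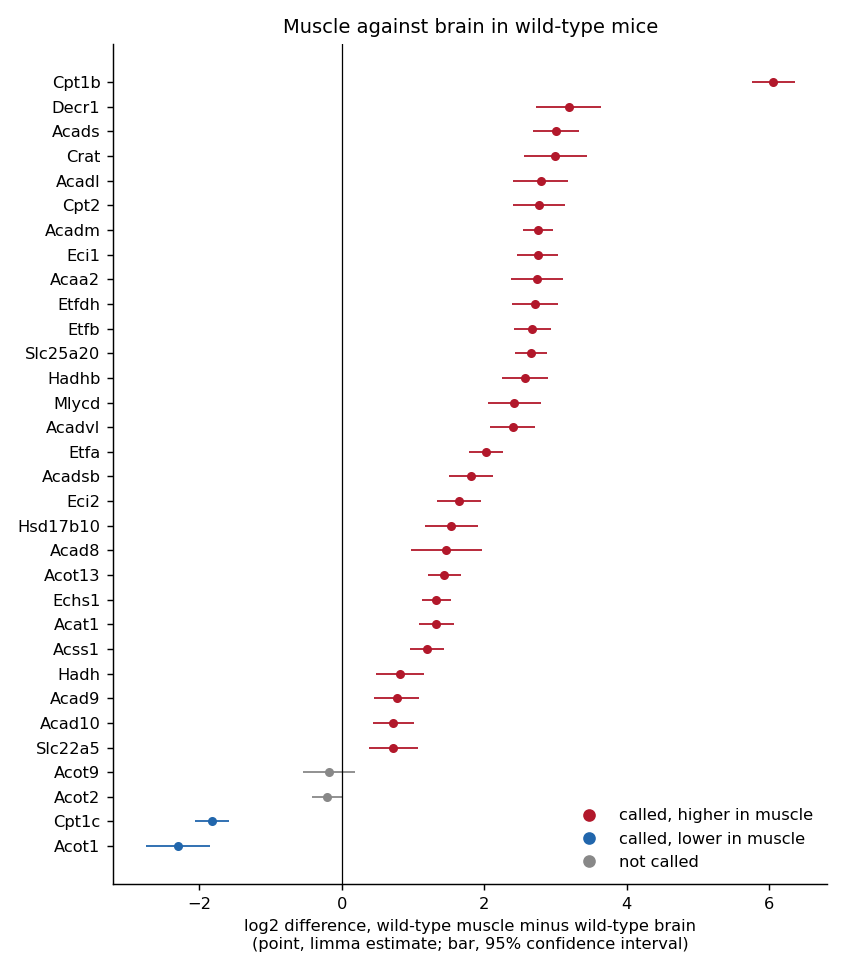
Log2 difference of each gene, wild-type muscle minus wild-type brain (x axis; points, limma estimates from 4 muscle and 6 brain arrays; bars, 95% confidence intervals). Cpt1b stands far right at 6.06, Acot1 and Cpt1c are left of 0 at -2.30 and -1.82, and the intervals of Acot9 and Acot2 include 0. Cpt1c, Hadh and Acat1 passed the detection filter in a single tissue, so their points are a description and not a measured size.

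The neighbours of the pathway were split. Over all 14022 probes tested in either tissue, 40.7% were called higher in wild-type muscle and 35.2% lower. Some of the genes counted below passed the detection filter in a single tissue, so their direction is a description. These include Sucla2, above background on 6 muscle and 0 brain arrays, and Ucp3, on 8 and 0. They also include Rxra (8 and 1), Slc27a4 (0 and 12) and Decr2 (3 and 12). Among the 17 citrate cycle genes tested, 16 were called higher in wild-type muscle and 1 lower: Sdhd, a membrane anchor of succinate dehydrogenase, by 3.12 and Mdh2, malate dehydrogenase, by 2.88, while Idh3b, a subunit of isocitrate dehydrogenase, had a difference of -3.10. Of 12 regulators and fuel-switch genes, 10 were called higher and 1 lower; Pdk4, the kinase that blocks glucose carbon at pyruvate dehydrogenase, was higher by 6.05, and Prkaa2, a catalytic subunit of AMP-activated kinase, by 3.06. Ucp3, the uncoupling protein of muscle, was above background on 8 of 8 muscle and 0 of 12 brain arrays. Of 12 peroxisomal beta-oxidation genes, 5 were called higher and 1 lower, led by Ech1, a dienoyl-CoA isomerase, at 2.05. Of 9 genes of acyl-CoA synthesis and entry, 2 were called higher and 4 lower: Fabp3, the fatty acid binding protein of heart and muscle, at 2.72, and the synthetases Acsl5 and Acsl6 at -1.98 and -1.92. Of 3 ketone body genes, Oxct1, which activates acetoacetate, was called higher, by 0.39. The count of higher peroxisomal genes is close to the share of the array. The lists of entry and ketone body genes are too small to set apart from it.

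The second comparison asks whether the transgene changed the pathway in muscle. No beta-oxidation probe was called between mutant and wild-type muscle, which does not show that the levels are equal. Levels here come from normalizing the 8 muscle arrays alone. By limma with Benjamini-Hochberg adjustment over 11706 probes, 0 of the 51 beta-oxidation probes were called, with a lowest adjusted p of 0.999, where 21 probes (0.179%) were called on the whole array. The count at an unadjusted p under 0.05 was also 0 of 51, where the array gave 3.11%. The median difference of the 31 genes, mutant minus wild type, was 0.07 on the log2 scale, against 0.01 over all tested probes; 22 genes lay above 0 and 9 below. The differences ran from -0.36 to 0.30, and the widest 95% intervals reached -0.93 and 0.99. In 1 probe of 51, the dimmer one of Acad8, every mutant lay below every wild-type muscle (difference -0.19, adjusted p = 0.999), where 1.09% of all probes did so; in 0 did every mutant lie above, where 1.06% did.

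The gene with the lowest p was Acadm. Its log2 signal was 12.87, 12.89, 12.64 and 12.64 in mutant muscles and 12.47, 12.69, 12.51 and 12.39 in wild-type muscles, so that wild type 2 overlapped the mutants. The difference was 0.24 (95% interval -0.02 to 0.50), and the second Acadm probe gave 0.00 (SE 0.22). Cpt1b was at 11.55, 11.41, 11.52 and 11.36 in mutant muscles and 11.30, 11.17, 11.41 and 11.35 in wild-type muscles, a difference of 0.15 (SE 0.11) with overlap between 11.36 and 11.41. Acat1 was at 5.82, 5.97, 6.04 and 5.68 in mutant muscles and 6.06, 5.60, 5.50 and 5.36 in wild-type muscles; wild type 1 was above all mutants, and the difference was 0.25 (SE 0.16). Acadl gave the lowest difference, -0.36 (SE 0.26), with 8.12, 7.59, 7.70 and 7.55 in mutant muscles and 8.03, 8.88, 8.06 and 7.43 in wild-type muscles. Its other probe gave 0.13 (SE 0.22), so the sign depended on the probe.

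For the remaining genes of lowest p the groups overlapped as well. Etfa was at 12.83, 12.73, 12.85 and 12.68 in mutant muscles and 12.73, 12.65, 12.67 and 12.53 in wild-type muscles (difference 0.13, SE 0.10). Hadhb was at 11.08, 11.04, 11.15 and 11.43 in mutant muscles and 11.15, 11.02, 11.24 and 10.47 in wild-type muscles (0.21, SE 0.17), where wild type 4 was the low array. Eci2 was at 8.21, 7.70, 8.25 and 8.18 in mutant muscles and 8.16, 7.62, 7.58 and 8.17 in wild-type muscles (0.20, SE 0.18), each group holding both high and low mice. Acot2 was dim, at 5.02, 4.86, 5.77 and 5.59 in mutant muscles and 5.06, 4.30, 5.41 and 5.33 in wild-type muscles (0.29, SE 0.27).

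The backbone of the pathway stayed within the spread between mice. Slc25a20 was at 10.68, 10.58, 10.83 and 10.94 in mutant muscles and 10.74, 10.93, 10.54 and 10.50 in wild-type muscles, a difference of 0.08 (SE 0.13). Cpt2 was at 9.57, 9.44, 9.45 and 9.71 in mutant muscles and 9.58, 9.80, 9.29 and 9.45 in wild-type muscles, a difference of 0.01 (SE 0.13). Acadvl was at 10.63, 10.30, 10.54 and 10.69 in mutant muscles and 10.51, 10.62, 10.33 and 10.41 in wild-type muscles, a difference of 0.07 (SE 0.12). In each of these 3 genes the groups overlapped over most of their range. Etfdh was at 9.60, 9.17, 9.24 and 9.25 in mutant muscles and 9.49, 9.63, 9.30 and 9.23 in wild-type muscles, a difference of -0.10 (SE 0.14). The genes not given in full also overlapped between genotypes. In the shuttle and the first step, Slc22a5 gave 0.02, Crat -0.09, Mlycd 0.20, Acads 0.09, Acadsb -0.08, Acad8 0.09, Acad9 -0.02 and Acad10 0.09. In the later steps Etfb gave 0.02, Echs1 -0.07, Hadh -0.14, Hsd17b10 0.05 and Acaa2 0.05, and for unsaturated chains Eci1 gave 0.00 and Decr1 0.30. The thioesterases Acot1, Acot9 and Acot13 gave 0.28, -0.05 and -0.11, and Acss1 gave 0.10. By step, the median difference was 0.05 for 6 carnitine shuttle genes, 0.08 for 8 acyl-CoA dehydrogenases, 0.02 for 3 electron-transfer genes, 0.05 for 6 genes of hydration to thiolysis, 0.20 for 3 genes of unsaturated chains and 0.10 for 5 thioesterase and acetate genes.

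Other cell types moved between the muscle samples. The mean log2 signal of the 31 beta-oxidation genes was 8.91, 8.69, 8.86 and 8.80 in mutant muscles and 8.89, 8.71, 8.75 and 8.67 in wild-type muscles. Ucp1, the uncoupling protein that defines brown adipocytes, was at 8.19, 4.94, 5.27 and 5.33 in mutant muscles and 5.10, 6.13, 4.32 and 4.19 in wild-type muscles. The list of 7 slow-fibre genes averaged 7.91 to 9.51 in mutant and 6.49 to 9.97 in wild-type muscles, lowest in wild type 4. Without mutant 1 and wild type 2, which were highest in brown adipocyte genes, the median difference of the beta-oxidation genes was 0.02 and 0 probes were called; how much of the beta-oxidation signal these cells carry was not tested. All 8 pancreatic acinar genes were called lower in mutant muscle, with a median difference of -1.59; their part in the beta-oxidation values was not tested.

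**Figure D3:**
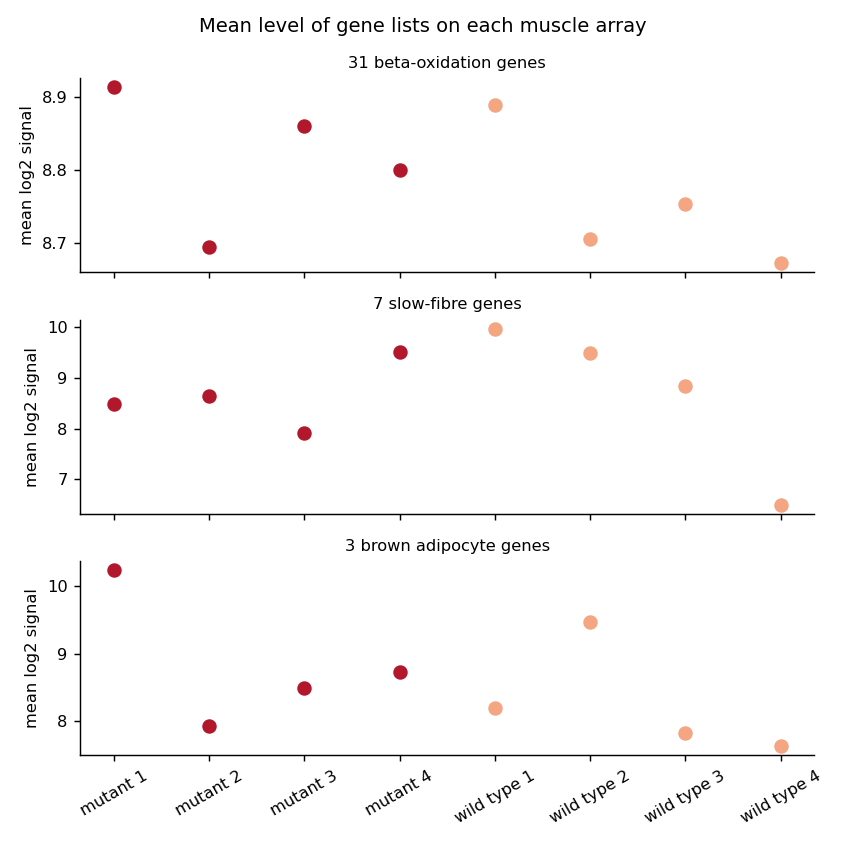
Mean log2 signal of 31 beta-oxidation genes, 7 slow-fibre genes and 3 brown adipocyte genes (y axes) on each muscle array (x axis; 4 mutant, then 4 wild type). Mutant 1 is highest in brown adipocyte genes (10.23), wild type 4 is lowest in slow-fibre genes (6.49), and the beta-oxidation means run from 8.67 to 8.91.

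The third comparison is the same question in brain, where the 12 brain arrays were normalized alone. No beta-oxidation probe passed the adjusted test, and several were lower in mutant brain at the unadjusted level. By limma, 0 of 44 probes were called over 12423 tested probes, with a lowest adjusted p of 0.563, where 1 probe (0.00805%) was called on the whole array. At an unadjusted p under 0.05 there were 11 of the 44 probes (25%), of 9 genes, where the array gave 7%. Of these 11, 10 had the lower signal in mutants and 1 the higher. Over the array, the 7% included 4.52% with the lower signal in mutants, so lower signals were also the more common there. The median difference of the 30 genes was -0.07, against 0.00 over all tested probes; 17 genes lay below 0 and 13 above, and 49.5% of all probes lay below 0. In 0 probes did the genotypes separate fully, where in 0.386% of all probes every mutant lay below and in 0.209% above.

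Acot13 had the lowest p. Its log2 signal was 8.76, 8.95 and 9.21 in mutant brains and 9.09, 9.29 and 9.41 in wild-type brains (lowest, median and highest of 6, as throughout for brain). The difference was -0.30 (SE 0.10, adjusted p = 0.563), and some mutants lay within the wild-type range. Echs1 was at 7.91, 8.03 and 8.15 in mutants and 8.11, 8.27 and 8.34 in wild types. Its difference of -0.23 (SE 0.08, adjusted p = 0.569) leaves the mutants at 85.2% of wild type, with the groups overlapping between 8.11 and 8.15. Mlycd was at 6.14, 6.41 and 6.57 in mutants and 6.52, 6.72 and 7.39 in wild types (-0.40, SE 0.14, adjusted p = 0.608). Its highest value is wild type 1, and without that array the difference was -0.28.

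The acyl-CoA dehydrogenases and later steps held more of these genes. Acadsb was at 6.47, 6.87 and 7.12 in mutants and 6.92, 7.18 and 7.43 in wild types (-0.35, SE 0.13, adjusted p = 0.619). Acadl was at 4.62, 5.08 and 5.30 in mutants and 5.14, 5.37 and 5.55 in wild types (-0.34, SE 0.13, adjusted p = 0.621), but its other tested probe gave 0.17 (SE 0.13). Hadhb was at 7.47, 7.71 and 8.23 in mutants and 7.79, 8.18 and 8.35 in wild types (-0.35, SE 0.13, adjusted p = 0.621). In all 3 genes the median mutant lay below the lowest wild-type brain, and the highest mutant lay inside the wild-type range. The median over the 8 acyl-CoA dehydrogenases was -0.19, with 6 genes below 0, and over the 4 genes of hydration to thiolysis -0.22, with 3 below 0.

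Electron-transfer genes gave differences of either sign. Etfdh was at 6.06, 6.19 and 6.60 in mutants and 6.16, 6.59 and 7.13 in wild types (-0.39, SE 0.15, adjusted p = 0.621). Etfb was at 8.88, 9.09 and 9.31 in mutants and 8.50, 8.87 and 9.21 in wild types (0.24, SE 0.12, adjusted p = 0.734), and its second probe gave 0.28 (SE 0.11), the 1 higher probe of the 11. The probes of Etfa did not give the same size. The brightest was at 9.67, 10.06 and 10.24 in mutants and 9.86, 10.03 and 10.19 in wild types (-0.05, SE 0.12), whereas the 3 dimmer probes gave -0.34, -0.32 and -0.24 (SE 0.13, 0.11 and 0.10), each with an unadjusted p under 0.05.

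**Figure D4:**
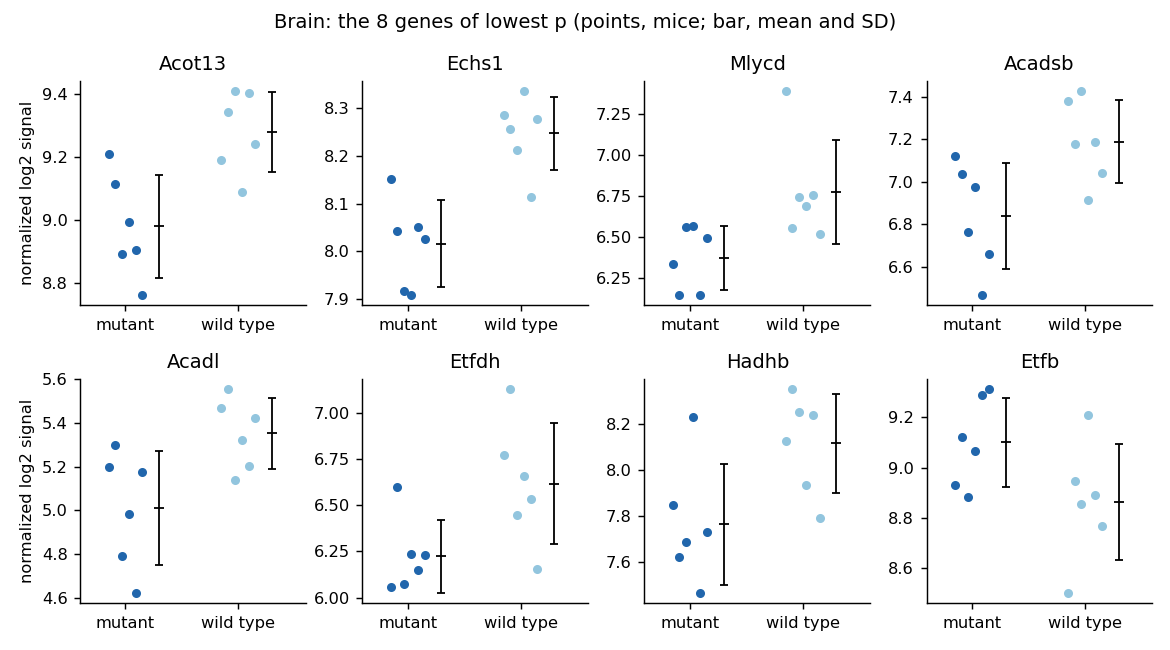
Normalized log2 signal (y axes, each with its own range and not starting at 0) of the 8 beta-oxidation genes of lowest p in brain, with 6 mutant mice left of 6 wild-type mice in each panel (points, mice; bars, mean and SD). Mutant and wild-type mice overlap in every panel; Etfb is the 1 panel with the higher mean in mutants.

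Values of 0.04 to 0.09 were seen for 3 genes of the carnitine shuttle. Slc25a20 was at 7.68, 7.84 and 7.98 in mutants and 7.57, 7.72 and 7.96 in wild types (0.07, SE 0.09). Cpt2 was at 6.34, 6.84 and 7.05 in mutants and 6.02, 6.74 and 7.09 in wild types (0.09, SE 0.17). Cpt1c gave a difference of 0.04 (95% interval -0.21 to 0.28). The mutants of these genes lay within or close to the wild-type range. Cpt1b, dim in brain, was at 4.66, 4.88 and 5.38 in mutants and 4.51, 5.12 and 5.38 in wild types (-0.12, SE 0.16). Acadm was at 9.05, 9.23 and 9.51 in mutants and 9.10, 9.27 and 9.34 in wild types, a difference of -0.02 (SE 0.09). Acadvl was at 7.40, 7.54 and 7.97 in mutants and 7.42, 7.81 and 8.24 in wild types, a difference of -0.24 (SE 0.15).

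The remaining genes gave differences between -0.23 and 0.17. Slc22a5 and Crat both gave 0.01, with standard errors of 0.15 and 0.19. The branched-chain and accessory dehydrogenases Acad8, Acad9 and Acad10 gave 0.13, 0.06 and -0.14, and Acads gave -0.23 (SE 0.17). Among the later steps Hsd17b10 gave -0.21 (SE 0.11) and Acaa2 0.12 (SE 0.16). The isomerases Eci1 and Eci2 gave -0.09 and -0.20 and the reductase Decr1 0.17. The thioesterases Acot1, Acot2 and Acot9 gave -0.11, 0.06 and 0.08, and Acss1 gave 0.04. None of these passed the adjusted test. The median was 0.01 over 7 carnitine shuttle genes, -0.05 over 3 electron-transfer genes, -0.09 over 3 genes of unsaturated chains and 0.04 over 5 thioesterase and acetate genes.

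**Figure D5:**
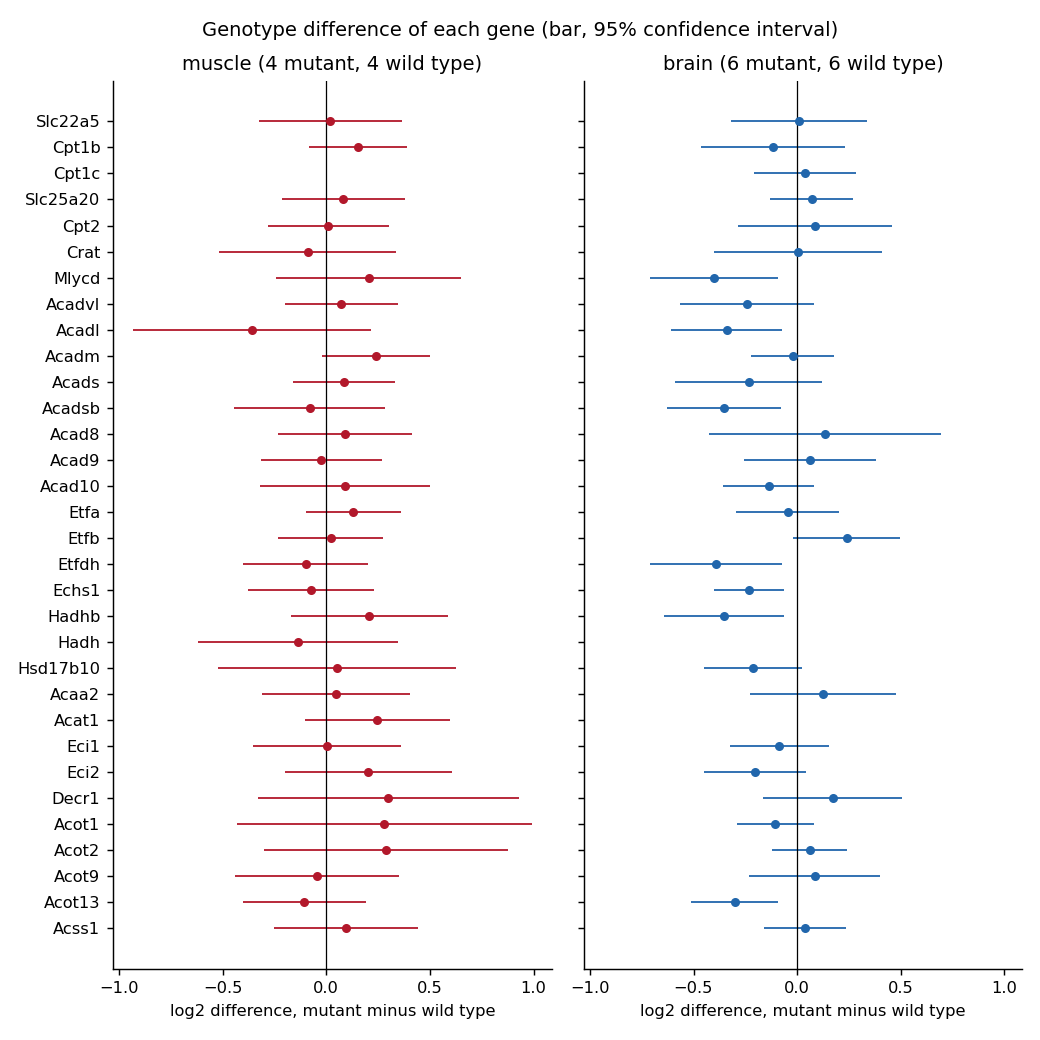
Log2 difference of each gene, mutant minus wild type (x axes; points, limma estimates; bars, 95% confidence intervals), in muscle (left, 4 mutant and 4 wild-type mice) and brain (right, 6 and 6); a missing row was not tested in that tissue. In muscle every interval includes 0; in brain 7 intervals lie below 0, those of Mlycd, Acadl, Acadsb, Etfdh, Echs1, Hadhb and Acot13, and none passed after adjustment.

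The mean over the 30 genes was 6.74 to 6.88 in mutant brains and 6.81 to 6.95 in wild-type brains. Marker lists also varied between mice, with overlapping genotypes: 6 hypothalamus and pituitary genes averaged 6.15 to 8.28 in mutants and 4.39 to 8.07 in wild types, and 7 astrocyte genes 9.26 to 9.53 in mutants and 9.04 to 9.41 in wild types. With the cerebellum and hypothalamus levels as covariates, 4 probes had an unadjusted p under 0.05, where the array gave 4.56%, and the median of the genes was -0.12. Without brain mutant 2 and wild types 2 and 4, which stood apart, the count was 12, where the array gave 11.3%. On the 6 arrays that had the Y-linked signal the count was 8, where the array gave 6.40%, and the median was -0.17. No beta-oxidation probe was called in any of these fits.

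The last comparison is whether the genotype difference was unlike in the 2 tissues. It was the interaction of a limma fit to all 20 arrays, over the 10107 probes tested in both tissues. None of the 42 beta-oxidation probes were called, where 5 probes (0.0495%) were called on the array, and 4 of the 42 had an unadjusted p under 0.05, where the array gave 4.32%. They were Mlycd (0.20 in muscle and -0.40 in brain), Hadhb (0.21 in muscle and -0.35 in brain) and dimmer probes of Etfa (0.20 in muscle, with -0.34 and -0.32 in brain). The lowest adjusted p was 0.899.

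The other genes of fatty acid and mitochondrial metabolism gave no calls between genotypes. In mutant brain 13 of 16 citrate cycle genes lay below wild type, with a median of -0.16, led by the succinate dehydrogenase subunits Sdhb (-0.41, SE 0.10, adjusted p = 0.421) and Sdhc (-0.31, SE 0.11); in mutant muscle 4 of 17 lay below, with a median of 0.04, and the lowest p values were of Idh3a (0.24) and Ogdh (0.15). Among the regulators, Ppargc1b, a coactivator of mitochondrial genes, gave 0.74 (SE 0.18, adjusted p = 0.421) and Esrra, an orphan receptor that acts with it, -0.26 (SE 0.09) in brain, and in muscle Ppargc1b gave 0.22 and Tfam, a mitochondrial transcription factor, 0.14. The median of the regulators was 0.04 over 10 genes in brain and 0.13 over 12 in muscle. Peroxisomal genes had a median of 0.02 in brain, where Scp2 gave -0.19 and Pex11a 0.53, and of 0.02 in muscle, where Abcd3 gave -0.34 and Acaa1b 0.36. Genes of acyl-CoA synthesis and entry had a median of -0.01 in brain, where Fabp3 gave -0.25 and Acsl3 -0.16, and of 0.07 in muscle, where Acsl6 gave 0.10 and Acsl5 0.14. The 3 ketone body genes had a median of 0.01 in brain, where Acss2 gave 0.07 and Bdh1 -0.06, and of -0.06 in muscle, where Oxct1 gave -0.15 and Bdh1 0.14.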

How the data were processed

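Total RNA from Trizol extraction was column-purified and hybridised as biotin-labelled cRNA, per the labels' protocols. The submitters' processing notes name GenomeStudio 2011.1. The deposited intensity values are probe signals without normalization, each with a detection p-value in the same deposited file. The authors' deposited processed intensity values (linear, background-subtracted, lowest -14.5) were used only as an alternative.

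For this work, limma's normexp correction, with negative controls inferred from detection p-values, was applied to the signals, which were then offset by 16, quantile-normalized and log2-transformed (limma 3.58.1, R 4.3.3), within each tissue for genotype and over 20 arrays for tissue. The detection filter was a p under 0.05 on 4 or more muscle arrays, or 6 or more brain arrays. Groups were taken from the sample titles and fitted with lmFit and eBayes; p-values were adjusted over all tested probes by Benjamini-Hochberg. A gene is represented by its brightest tested probe. The offset shrinks differences of dim probes, and the number of arrays limits the precision. No 2 arrays of a group correlated above 0.992.

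The members and lists were chosen with earlier results of these data known. Values or ranges over mice were given for the 8 genes of lowest p per genotype comparison. Between tissues they were given for the 6 largest differences above 0 and the 4 below 0. In the genotype comparisons they were also given for Cpt1b, Cpt2, Slc25a20, Acadl, Acadm, Acadvl, Hadhb and Etfdh. Cpt1a and Hadha were chosen with these genes, but Cpt1a was above background on 0 arrays and Hadha has no probe. For each other list the text gives some of its called members, at most 4, or with none the 2 of lowest p. Not every called member of these lists is named. Promoter sequences are from RefSeq. Replicate numbers did not pair the mice. The fit was tested on simulated data with log2 changes of 1 and 2 in 200 probes: 85% and 99% were recovered in muscle, 87% and 100% in brain, and 83% and 100% between tissues. False calls numbered 11, 4 and 9. The simulated noise was normal and independent between probes, unlike arrays that stand apart as a whole. The genotype differences of the beta-oxidation genes were all smaller than 1, so these recoveries do not describe them. Alternatives covered background, scaling, offset, filter, array weights, marker covariates and left-out arrays. All value columns were used, and a further gene of the study's title is not reported here.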

Additional observations from a re-analysis of the deposited data

Results flagged for a closer look

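Among 122 combinations of a gene and a group, 7 held an array whose gap to its nearest neighbour, divided by the range of the group, exceeded Dixon's 95% critical value. Chance flags about 1 in 20, or 6.1 of 122. Values are normalized log2 signals.

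In mutant muscle, Crat was at 10.49 in replicate 4 against 9.80 to 9.90 in the other mutant muscles, Eci2 at 7.70 in replicate 2 against 8.18 to 8.25, and the dim Hadh at 4.39 in replicate 3 against 5.01 to 5.13. In wild-type muscle, replicate 2, which stood apart over the whole array, had Crat at 10.59 against 9.92 to 9.98 in the others and Hsd17b10 at 8.73 against 9.69 to 9.86.

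In brain, Etfdh was at 6.60 in mutant 2 against 6.06 to 6.24 in the other mutants; that array also stood apart over the whole array. Mlycd was at 7.39 in wild type 1 against 6.52 to 6.76 in the other wild types, and without that mouse its difference was -0.28 rather than -0.40. The causes of these values were not tested.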

How the results depend on the processing

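No beta-oxidation probe was called between genotypes in muscle, in brain or for the difference of tissues under any alternative run, nor with any single array left out. The median difference in muscle (0.07) ran from 0.02 to 0.08 over 11 alternatives and from 0.02 to 0.10 with single arrays left out. In brain (-0.07) it ran from -0.28 to -0.02 over 13 alternatives, with -0.02 for array weights and -0.03 for no background correction. It was -0.28 with median scaling, which moved the median of all probes to -0.20, -0.12 with regional markers as covariates and -0.17 without the arrays lacking the Y-linked signal. With single arrays left out it ran from -0.11 to -0.03. The 11 brain probes with an unadjusted p under 0.05 became 4 with regional covariates, where the array gave 4.56%, and 9 to 12 with single arrays left out, where it gave 5.20% to 10.0%. With the replicate number as a block, 0 probes were called in either tissue, and 10 brain probes had an unadjusted p under 0.05, where the array gave 9.67%. Deviations of same-numbered muscle mice correlated between -0.25 and 0.10 and those of brain mice between -0.07 and 0.62, and no array correlated best with its own number.

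Between tissues, detection on every array left 33 probes: 1 was called lower in mutants (3 as reported), and 31 higher and 1 lower in wild types (47 and 3 as reported). With single arrays left out, mutants gave 47 to 48 higher and 3 to 4 lower, and wild types 46 to 48 and 3 to 5, the 5 without wild-type muscle 3. The sizes were smallest without background correction, at 4.21 for Cpt1b, 1.89 for Decr1, 1.67 for Acads, 1.51 for Acadl and -1.22 for Acot1, with the direction and the call of each kept. Cpt1c gave -0.60 there, but it entered the test through brain alone, so its direction remains a description. Of 815 values of single genes, 795 kept direction and call, 5 passed the threshold and 15 changed sign. The 5 were tissue differences of Acot2 and Acot9 in wild-type mice, with lowest limma adjusted p of 0.0041 and 0.0292. Acot2 stayed uncalled in 4 of 7 alternatives and 9 of 10 fits with an array left out. Acot9 did so in 7 of 7 and 9 of 10. That Acot2 was not called thus depends on the processing. None of the sign changes were of called genes. With median scaling they were Cpt2 in muscle (-0.011), and Etfb (-0.054), Slc25a20 (-0.206) and Cpt2 (-0.178) in brain. With regional covariates they were Acadm (0.028), Slc25a20 (-0.00913) and Cpt2 (-0.00816), with array weights Acadm (0.037), and without the arrays lacking the Y-linked signal Slc25a20 (-0.063). With single arrays left out, Cpt2 in muscle ran from -0.068 to 0.102, Cpt2 in brain from -0.042 to 0.171 and Acadm in brain from -0.077 to 0.016. The causes were not tested. Dim probes such as Hadh, Acot2, Acot9 and Cpt1b in brain lie close to background, which limits what their values can show, and 4 against 4 muscles leave intervals that reach about 1 on the log2 scale.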
